A study of Mus musculus with 6 samples.

Results

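The genes described here are 7 regulators of p53 that are themselves candidate p53 targets and are grouped as a p53 negative feedback set: Mdm2, Mdm4, Ppm1d, Ccng1, Rchy1, Trp53inp1 and Usp7. They were chosen by name, 7 of the 22380 protein-coding genes in the GENCODE vM1 annotation of the mouse genome mm9 (NCBIM37). A gene was counted as bound in a list when at least 1 p53 peak shared at least 1 bp with the gene body extended by 10 kb on both sides, and the 7 windows ran from 26760 bp (Ccng1) to 123587 bp (Usp7). All p53 peaks that met this rule are accounted for below, the highest peak of each gene and list with its position, deposited value and rank, every mock peak with its value and rank, and the low irradiated peaks by their number and range.

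p53 is a transcription factor that is held at low levels in unstressed cells and accumulates after DNA damage. Some of the genes it activates encode proteins that remove, mask or dephosphorylate it, and this loop limits the duration of the response. Mouse embryos without Mdm2 or Mdm4 die unless p53 is also absent, and lymphocytes of the spleen are among the cells that most readily die through p53 after irradiation. Among the 7 genes, Trp53inp1 is the one whose product is best known as a partner that favours p53 phosphorylation and cell death, so the word negative does not describe it well, and Usp7 stabilises both Mdm2 and p53.

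p53 ChIP-seq, in which DNA fragments held by an antibody to p53 are sequenced, had been carried out on splenic cells of C57/Bl6 mice, and regions where fragments pile up were deposited as 1 peak list per library. B cells, captured on magnetic beads by the surface marker B220, and non-B cells, the flow-through that is rich in T cells but mixed, came from Trp53+/+ animals aged 8 weeks that were either mock treated or studied 4 h after 7 Gy of irradiation (IR). The fifth list came from unseparated spleen cells of Trp53-/- mice 4 h after 7 Gy, whose age the labels do not give, and it therefore differs from the other IR lists in cell mix as well as in genotype. Each group was 1 library from the pooled chromatin of 10 animals, so no value below has a replicate or an error, no test between groups was possible, and every comparison is between libraries. In mixed cells, p53 bound in more cells and more p53 bound per cell cannot be told apart.

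The lists held 1413 peaks in mock B cells, 24507 in irradiated B cells, 712 in mock non-B cells, 21400 in irradiated non-B cells and 83 in Trp53-/- spleen IR. The lists are named below by cells and treatment (mock or irradiated, IR in the plots). The deposited value of a peak is taken here as −log10 of its p-value, a unit inferred from the values themselves. Such a value rises with sequencing depth and has no common scale across libraries. The deposited value is therefore read as a rank within a list, with rank 1 the highest. The depth of the libraries is unknown, and absence from a list does not show that p53 was absent from a site. In B cells the narrowest peak was 55 bp wide after mock treatment and 175 bp after irradiation. In non-B cells the same measure was 53 and 174 bp. The irradiated Trp53-/- spleen list, however, also began at 55 bp. The smallest width thus differed by treatment within each Trp53+/+ compartment but did not follow irradiation across all lists. How this difference bears on the numbers of peaks was not tested. The lists hold no expression values, so the cell types could not be checked against marker genes.

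Irradiation was accompanied by p53 peaks at all 7 regulators in both compartments. In irradiated B cells 27 peaks fell in the 7 windows, at 7 of 7 genes, where 53.4% of all protein-coding genes had a peak in the same kind of window. In irradiated non-B cells it was again 27 peaks at 7 of 7 genes, against 51.8% of all genes. A peak somewhere near the gene was therefore common for any gene in these lists.

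Peak height was the next measure. Mdm2, Mdm4, Ccng1, Rchy1 and Trp53inp1 each held at least 1 peak among the top 5% of the list in irradiated B cells, 5 of 7 genes where 4.17% of all protein-coding genes did. The same 5 genes held one in irradiated non-B cells, where 3.61% of all genes did. In each list 8 of the 27 peaks were in the top 5% and 14 of the 27 were below the list's median. Mdm2 and Trp53inp1 combined top 5% peaks with several peaks below the median, while Rchy1 had no peak below it. The median percentile of the gene's highest peak was 98.5 in irradiated B cells (24.2 to 99.9) and 99.1 in irradiated non-B cells (13.2 to 99.9). This takes the best of a gene's peaks and ranks it among single peaks, and no such median over all genes is given here.

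**Figure D1:**
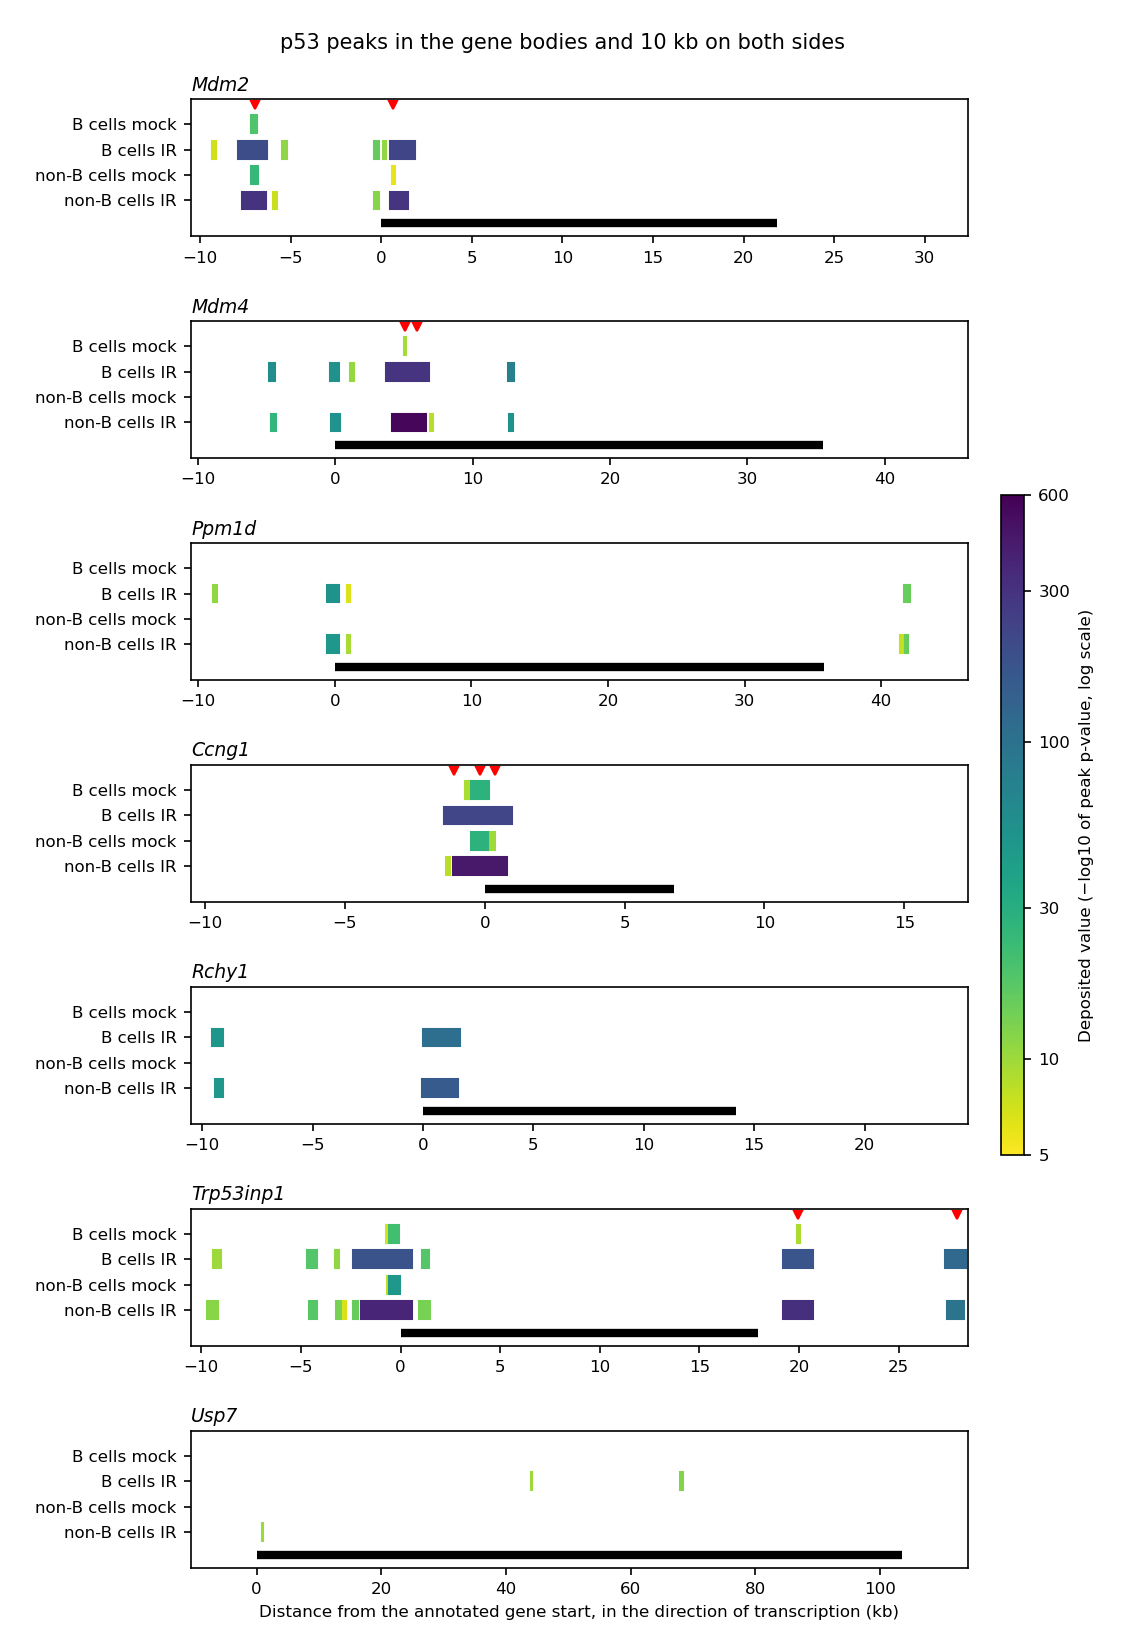
Peaks of the 4 Trp53+/+ lists along each gene, with the distance from the annotated gene start in the direction of transcription (kb) on the x axis, 1 row per list, the gene body as a black bar and peaks coloured by deposited value on a log scale; peaks narrower than 0.15 kb are drawn at that width. Red triangles mark unsplit p53 response elements inside a peak. The highest peak of Mdm4, 552 in irradiated non-B cells, lies in the first intron, that of Ccng1 covers the gene start, and Usp7 holds only values up to 12.1.

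In mock mice the bound set was smaller. In mock B cells 7 peaks fell at 4 of the 7 genes (Mdm2, Mdm4, Ccng1 and Trp53inp1), where 4.45% of all genes had a peak. In mock non-B cells 6 peaks fell at 3 of the 7 (Mdm2, Ccng1 and Trp53inp1), against 2.27% of all genes. Ppm1d, Rchy1 and Usp7 had no mock peak in either compartment, and none of the 13 mock peaks was in the top 5% of its list. In the irradiated Trp53-/- spleen list 0 of 7 genes had a peak, where 0.125% of all genes did.

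With promoters alone (−5 to 2 kb around an annotated start of the gene), the irradiated lists again covered the whole set. Promoter peaks were listed at 7 of 7 genes in irradiated B cells, against 39.5% of all genes, and at 7 of 7 in irradiated non-B cells, against 38.4%. For Usp7 in irradiated B cells this rests on a start inside the gene. The peak (12.1, rank 18565) lay 68168 bp from the gene start and −2484 bp from the start of a shorter transcript. No irradiated B cell peak was listed at the Usp7 gene start itself. They were listed at 2 of 7 genes in mock B cells (Ccng1 and Trp53inp1), against 1.96%, and at 3 of 7 in mock non-B cells, where Mdm2 was added, against 0.947%. In Trp53-/- spleen IR 0 of 7 genes had a promoter peak, against 0.067%.

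Long genes offer more room for a peak. Of the 2401 genes longer than 100000 bp, as Usp7 is, 60.3% had a peak in irradiated B cells and 57.1% in irradiated non-B cells. Of the 8874 genes of up to 10000 bp, as Ccng1 is, 38.1 and 37.3% did. The share did not rise steadily with length. It was 62.4 and 61.1% for genes above 10000 and up to 30000 bp, as Mdm2, Rchy1 and Trp53inp1 are. For genes above 30000 and up to 100000 bp, as Mdm4 and Ppm1d are, it was 66.2 and 63.7%. In the mock lists the shares for the same short genes were 2.46% (B cells) and 1.14% (non-B cells), and Ccng1 was bound in both.

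To describe the sequence under the peaks, the p53 response element was searched. It is a pair of decamers, each with the core CNNG, which p53 binds as a tetramer, and it reads the same on both strands. An element is called unsplit where the decamers touch, and here up to 3 of its 20 bases were allowed to differ from the consensus outside the required C and G of each core. A match is a description of the letters and does not show that p53 sits on it. The elements printed below were chosen because they lie inside the highest peaks of each gene. All are on the plus strand of mm9, with the element in capitals and, unless stated, 20 bases on each side in lower case.

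Mdm2 encodes the ubiquitin ligase that marks p53 for degradation, the central arm of the loop. Its gene, chr10:117125944-117147814 on the minus strand, had a pair of high peaks after irradiation. One lay upstream of the gene, around position −7020 bp from the annotated start, and the other over the first introns, with its midpoint at 961 bp in irradiated non-B cells and 1161 bp in irradiated B cells. The upstream peak held 3 decamers in a row, which make 2 overlapping unsplit elements, the nearer to consensus with 1 mismatch, centred at −6982 bp. The intron peaks held 1 unsplit element with 3 mismatches in the first intron, at 644 bp. The stretches are chr10:117154762-117154831 and chr10:117147141-117147200.
Mdm2 upstream: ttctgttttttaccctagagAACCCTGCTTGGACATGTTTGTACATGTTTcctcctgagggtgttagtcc
Mdm2 intron 1: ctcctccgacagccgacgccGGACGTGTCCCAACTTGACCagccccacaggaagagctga

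The upstream Mdm2 site was listed in all 4 Trp53+/+ libraries, at chr10:117154661-117155036 in mock B cells, chr10:117154158-117155721 in irradiated B cells, chr10:117154651-117155039 in mock non-B cells and chr10:117154162-117155506 in irradiated non-B cells, and all 4 peaks contained the printed run. Its value was 18.8 in mock B cells (rank 191 of 1413), 199 in irradiated B cells (rank 259 of 24507), 24.2 in mock non-B cells (rank 111 of 712) and 297 in irradiated non-B cells (rank 189 of 21400). The intron site, chr10:117145943-117147364 in irradiated B cells, was 224 there (rank 179) and 294 in irradiated non-B cells (rank 193), close to the upstream site in both lists. In the mock lists the intron site was present only in non-B cells, at 5.95 (rank 676 of 712), near the bottom of the list and as a peak of 85 bp that contained the printed intron element. The sites therefore ranked alike in the irradiated lists and apart in the mock lists. Of the other Mdm2 peaks after irradiation, the 4 in B cells had values from 7.09 to 15.4, the 2 in non-B cells had values of 7.49 and 11.7, and none held an element.

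Mdm4 encodes a relative of Mdm2 that lacks ligase activity of its own and covers the activation domain of p53. The gene lies at chr1:134886422-134921943 on the minus strand. Its first intron carried the highest peak of all 7 genes in both IR lists, chr1:134915123-134918242 in B cells and chr1:134915359-134917816 in non-B cells, 3120 and 2458 bp wide. The peak held 3 unsplit elements, each group with a best match of 1 mismatch: a run of 3 decamers at 5057 bp from the start and a single element at 5916 bp. The run is shown from chr1:134916852-134916921, and the single element, without flanks because an untranslated exon is annotated beside it, from chr1:134916018-134916037.
Mdm4 intron 1, run: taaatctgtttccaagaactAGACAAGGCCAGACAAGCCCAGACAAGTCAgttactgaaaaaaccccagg
Mdm4 intron 1, single: AGACAGGTTTGGACATGTTC

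The Mdm4 intron site had a value of 294 in irradiated B cells (rank 30 of 24507) and 552 in irradiated non-B cells (rank 18 of 21400). In mock B cells it was 9.49 (chr1:134916794-134916987, rank 681 of 1413), in the middle of the list, as a peak of 194 bp around the run of decamers. In mock non-B cells it was not listed. The site that ranked highest after irradiation was thus the lowest of the 4 bound genes in mock B cells and had no peak in mock non-B cells. Both IR lists also held a peak at the Mdm4 start (54.7 and 51.1 in B and non-B cells), 1 near −4586 bp (57.2 and 25.5) and 1 in the third intron near 12774 bp (75.5 and 52.2). None of these 3 sites held an unsplit element inside the peak. The remaining Mdm4 peaks, 1 in each IR list, had values of 10.9 and 8.44.

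Ppm1d encodes Wip1, a phosphatase that removes damage-induced phosphates from p53 and from the kinases upstream of it. Its gene, chr11:85124746-85160568 on the plus strand, had no mock peak. After irradiation the highest peak lay over the start, with a value of 52.8 in irradiated B cells (chr11:85124167-85125077, rank 3105) and 47.3 in irradiated non-B cells (chr11:85124167-85125038, rank 2990), below the top 5% in both lists. It held no unsplit element and 8 elements with a spacer of 1 to 15 bases between the decamers, some of which can share a decamer, and the best had a spacer of 5 bases and 1 mismatch, centred at −503 bp (chr11:85124211-85124275, decamers in capitals).
Ppm1d promoter: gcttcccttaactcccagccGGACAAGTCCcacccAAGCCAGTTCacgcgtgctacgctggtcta

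An element with a spacer and at most 1 mismatch was found within 300 bp of the midpoint of 4.10% of all irradiated B cell peaks and in 2.37% of windows moved by 10 kb. The printed Ppm1d element came from a search of the whole peak and lay −379 bp from its midpoint, so it would not be counted under that rule. The other Ppm1d peaks were low. In irradiated B cells they had values of 6.46, 11.1 and 14.96, and in irradiated non-B cells of 7.61, 9.40 and 15.2. The peaks beyond the 3′ end of Ppm1d lay in the promoter of the neighbouring gene Bcas3, with midpoints between −401 and −30 bp from its start, and do not bear on Ppm1d alone.

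Ccng1 encodes cyclin G1, which brings a phosphatase to Mdm2 and raises its activity. The gene, chr11:40562054-40568813 on the minus strand, is the shortest of the 7. In irradiated B cells its promoter and first exon were covered by a single peak, chr11:40567853-40570283, and in irradiated non-B cells by chr11:40568021-40569952 with a low peak of 8.26 beside it. The peak held 3 unsplit elements, those at −160 bp and 366 bp with 1 mismatch and that at −1089 bp with 3. The 2 nearer to consensus are shown from chr11:40568944-40569003 and chr11:40568418-40568477.
Ccng1 promoter: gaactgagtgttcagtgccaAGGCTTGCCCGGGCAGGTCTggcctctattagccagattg
Ccng1 intron 1: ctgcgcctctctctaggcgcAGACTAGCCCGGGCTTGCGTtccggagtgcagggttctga

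Ccng1 was among the better ranked genes in all 4 Trp53+/+ lists. Its main peak was 27.9 in mock B cells (chr11:40568652-40569365, rank 101 of 1413) and 27.9 in mock non-B cells (chr11:40568685-40569305, rank 90 of 712), and both of these peaks contained the element at −160 bp. It was 220 in irradiated B cells (rank 191) and 437 in irradiated non-B cells (rank 81). The mock lists held a further low peak each, 9.13 at −667 bp in B cells (rank 701) and 9.88 at 264 bp in non-B cells (rank 399), neither with an unsplit element inside it. In mock B cells the main Ccng1 peak was the highest of the 7 genes, while after irradiation Mdm2 and Mdm4 ranked above it in B cells and Mdm4 in non-B cells.

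Rchy1 encodes Pirh2, another ubiquitin ligase that acts on p53. The gene lies at chr5:92377930-92392094 on the minus strand and had no mock peak. Its first intron and start were covered by a peak of 108 in irradiated B cells (chr5:92390441-92392098, rank 905) and 155 in irradiated non-B cells (chr5:92390503-92392130, rank 533), which was in the top 5% of both lists. The same peak lay in the promoter of the gene Thap6, with its midpoint at −1043 bp from the Thap6 start in irradiated non-B cells, so it cannot be assigned to one gene. No unsplit element was found in it, and the best of 6 spaced ones had a spacer of 10 bases and 2 mismatches (chr5:92391429-92391498, decamers in capitals). An element with a spacer and at most 2 mismatches was within 300 bp of the midpoint of 15.9% of all irradiated B cell peaks and in 11.7% of windows moved by 10 kb.
Rchy1 intron 1: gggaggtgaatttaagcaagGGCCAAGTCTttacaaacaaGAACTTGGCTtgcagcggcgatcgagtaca

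A further Rchy1 peak near −9316 bp had values of 48.1 (rank 3655) and 46.9 (rank 3060) in irradiated B cells and irradiated non-B cells. Rchy1 was thus the 1 gene with a top 5% peak after irradiation in both compartments and no mock peak in either.

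Trp53inp1 encodes a nuclear protein that works with kinases that phosphorylate p53 and that promotes cell death. The gene, chr4:11083578-11101526 on the plus strand, had the most peaks of the 7, with 7 in irradiated B cells and 9 in irradiated non-B cells. In each list 3 were in the top 5%. These lay over the promoter and at a pair of sites downstream of the gene, whose midpoints in irradiated B cells were 19955 and 27847 bp from the gene start.

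The promoter peak, chr4:11082987-11083490 in mock B cells, chr4:11081184-11084163 in irradiated B cells, chr4:11083001-11083576 in mock non-B cells and chr4:11081589-11084137 in irradiated non-B cells, was broader after irradiation. It had values of 21.5 in mock B cells (rank 161), 176 in irradiated B cells (rank 366), 47.9 in mock non-B cells (rank 43 of 712) and 363 in irradiated non-B cells (rank 124). In mock non-B cells this was the highest ranked peak of the 7 genes, ahead of Ccng1. A low peak of 6.95 (B cells, rank 1145) or 8.00 (non-B cells, rank 560) stood beside it in the mock lists. The irradiated peak held no unsplit element. It held an element with 0 mismatches and a spacer of 1 base, centred at −1309 bp, which lay outside the mock peaks (chr4:11082239-11082299, decamers in capitals). An element with a spacer and 0 mismatches was within 300 bp of the midpoint of 0.694% of all irradiated B cell peaks and in 0.212% of windows moved by 10 kb. The printed element was found by a search of the whole broad peak and lay −594 bp from the midpoint in irradiated non-B cells, outside such a window, so these shares are not its background.
Trp53inp1 promoter: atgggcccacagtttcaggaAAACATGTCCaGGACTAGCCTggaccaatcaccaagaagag

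The downstream sites each held 3 decamers in a row, which make 2 overlapping unsplit elements with 2 mismatches at best (chr4:11103474-11103543 and chr4:11111463-11111532).
Trp53inp1 downstream, first: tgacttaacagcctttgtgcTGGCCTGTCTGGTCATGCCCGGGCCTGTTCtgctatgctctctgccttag
Trp53inp1 downstream, next: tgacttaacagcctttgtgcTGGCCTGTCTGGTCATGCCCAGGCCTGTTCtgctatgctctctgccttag

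These 2 stretches of 70 bases differed at 1 base, and the sites were near copies of each other: they aligned over 587 columns with 95.7% identity, 7985 bp apart. The first had values of 169 in irradiated B cells (rank 391) and 312 in irradiated non-B cells (rank 170), and was listed in mock B cells at 9.08 (chr4:11103471-11103525, rank 754), as a peak of 55 bp that contained the printed elements. The next had 121 in irradiated B cells (rank 748) and 97.0 in irradiated non-B cells (rank 971), and was listed in neither mock library. The first copy ranked above the next in both IR lists. Of the 31-base words in the first and next site, 65.1 and 69.5% occurred once in the genome, the lowest shares of the 32 sites, and at the other sites at least 70.9% did. How the placing of reads between the copies bears on their values was not tested. The gene that follows on this side is Ccne2, which encodes cyclin E2, and in irradiated B cells the midpoints of the copies were −14965 and −7073 bp from its start. The other 10 Trp53inp1 peaks of the IR lists had values from 6.64 to 18.0.

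Usp7 encodes a deubiquitinase that takes ubiquitin off both Mdm2 and p53. Its gene, chr16:8688815-8792401 on the minus strand, is the longest of the 7, and its highest peak was the lowest of the 7 highest peaks in both IR lists. Irradiated B cells listed 12.1 (chr16:8724039-8724427, rank 18565) and 10.2 (chr16:8748193-8748451, rank 20909), both in introns. Irradiated non-B cells listed 10.2 in the first intron (chr16:8791411-8791595, rank 18566). No Usp7 peak was shared by the compartments, none held an unsplit element inside it, and all were below the median of their lists.

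**Figure D2:**
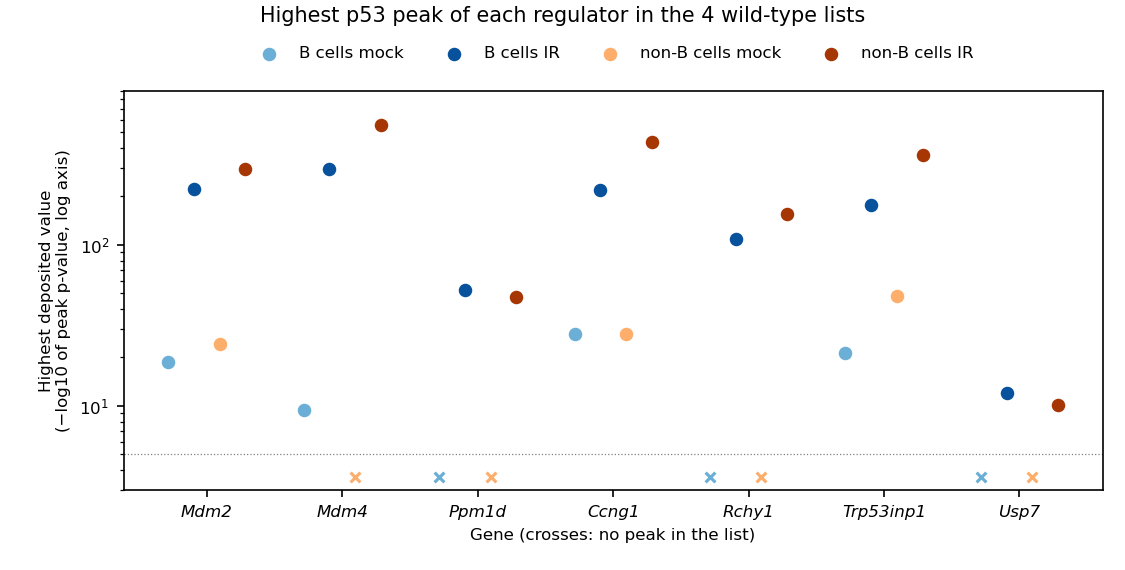
Highest deposited value (taken as −log10 of the peak p-value, log axis) of each gene in the 4 Trp53+/+ lists, 1 point per gene and library. Crosses mark genes that had no peak in a list, and the dotted line is at 5, about the lowest value listed. Values are not normalised between libraries. Within irradiated B cells the genes run from 294 (Mdm4) to 12.1 (Usp7), while in mock B cells Ccng1 is highest at 27.9 and Mdm4 lowest at 9.49.

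The order of the genes changed between mock and irradiated libraries. By their highest peak it was Mdm4, Mdm2, Ccng1, Trp53inp1, Rchy1, Ppm1d and Usp7 in irradiated B cells, and Mdm4, Ccng1, Trp53inp1, Mdm2, Rchy1, Ppm1d and Usp7 in irradiated non-B cells. In mock B cells it was Ccng1, Trp53inp1, Mdm2 and Mdm4, and in mock non-B cells Trp53inp1, Ccng1 and Mdm2. With 1 library per group there was no spread against which to read neighbours in these orders, and Mdm2 (224) and Ccng1 (220) in irradiated B cells were close. Mdm4 was first in both irradiated lists, and last or absent among the genes bound in the mock lists.

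Every mock peak at these genes lay under an irradiated one. The 7 mock B cell peaks overlapped irradiated B cell peaks in 7 of 7 cases, and 88.2% of all 1413 peaks did. The 6 mock non-B cell peaks overlapped irradiated non-B cell peaks in 6 of 6 cases, and 90.9% of all 712 did. Read the other way, 5 of 27 irradiated B cell peaks (18.5%) overlapped a mock peak, against 4.28% of the list, and 4 of 27 irradiated non-B cell peaks (14.8%), against 2.43%. The 5 in B cells ranked from 30 to 391 and the 4 in non-B cells from 81 to 193, all in the top 5%.

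The remaining top 5% peaks had no mock counterpart. In B cells these 3 were the Mdm2 intron site, the next downstream copy of Trp53inp1 and Rchy1. In non-B cells these 4 were the Mdm4 intron site, both downstream copies of Trp53inp1 and Rchy1. At the Mdm2 intron and Mdm4 intron sites the mock peak was thus present in one compartment and missing from the other, in opposite directions, at values of 5.95, near the low end of its list, and 9.49, near the middle.

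**Figure D3:**
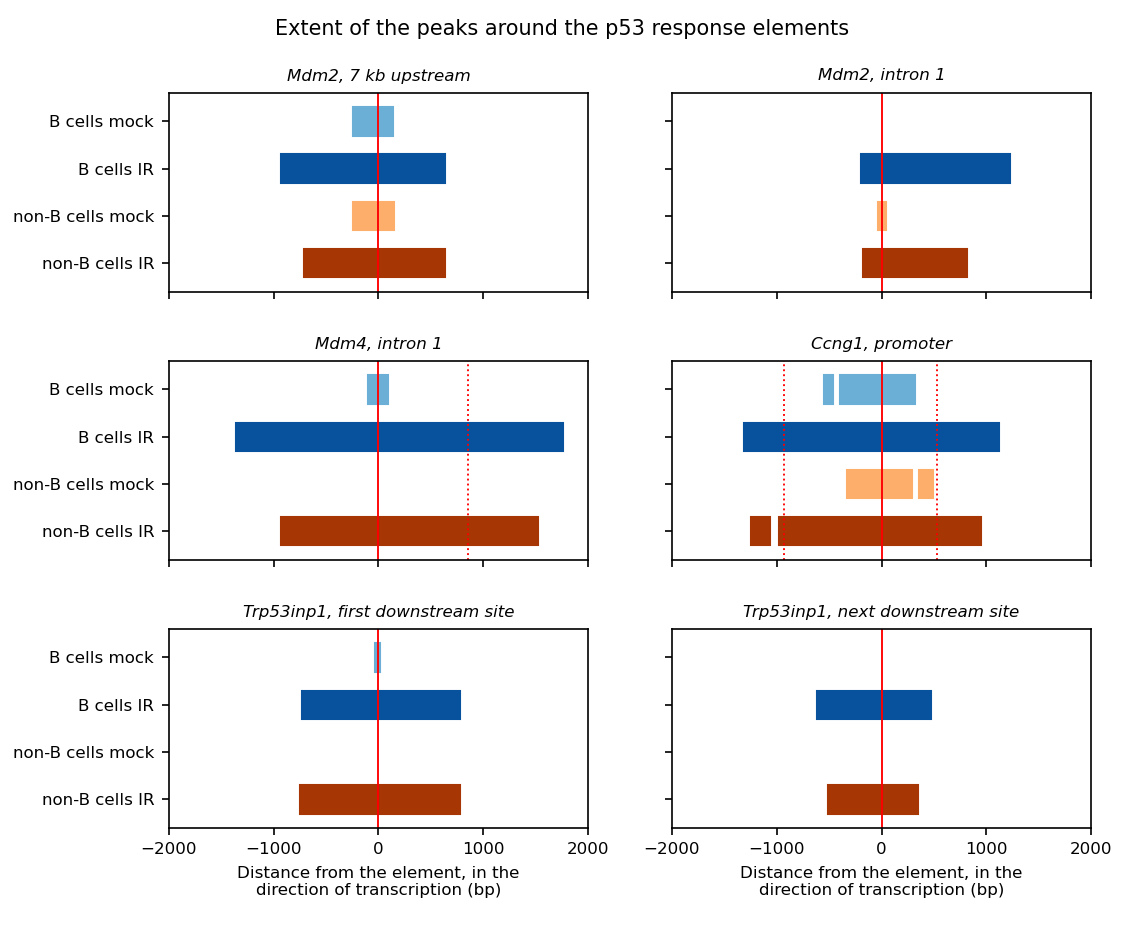
Extent of the peaks around 6 of the printed element sites, with the distance from the element in the direction of transcription (bp) on the x axis and 1 row per list; the solid red line is the element nearest the midpoint of the highest peak and dotted lines are other unsplit elements. The narrow mock peaks, where listed, cover or flank the central element, at the Mdm2 intron in non-B cells (85 bp) and at Mdm4 in B cells (194 bp), inside irradiated peaks of up to 3120 bp.

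Counted within 300 bp of the peak midpoint, a window that can reach beyond a narrow peak, an unsplit element was found at 4 of 7 peaks in mock B cells, where 22.3% of all peaks had one, and at 4 of 6 in mock non-B cells, against 34.6%. It was found at 7 of 27 peaks in irradiated B cells, against 15.3%, and at 7 of 27 in irradiated non-B cells, against 15.4%. In windows moved by 10 kb the shares were 2.84% in mock B cells, 3.21% in irradiated B cells, 2.53% in mock non-B cells and 3.31% in irradiated non-B cells. Among the genes, 5 of 7 had such a peak in each IR list, namely Mdm2, Mdm4, Ccng1, Trp53inp1 and Usp7. Of all genes 11.6% had one in irradiated B cells and 10.3% in irradiated non-B cells, and of those longer than 100000 bp, as Usp7 is, 27.1 and 24.1%. For both Usp7 peaks counted here, for the Mdm4 peak near −4586 bp, and for the low Ccng1 peaks of 8.26 (irradiated) and 9.88 (mock) in non-B cells, the element lay outside the peak itself. In the broad peaks the midpoint can miss an element inside. In irradiated non-B cells the Mdm4 run lay 299 bp from the midpoint of its peak, and the Mdm2 intron element 317 bp from that of its own. Mdm4 was thus counted in that list only through the peak near −4586 bp. With the whole peak searched instead, 4 genes had an element in each IR list.

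The compartments listed mostly the same sites. Of the 27 peaks in irradiated B cells, 20 overlapped an irradiated non-B cell peak (74.1%), against 73.6% of the whole list, and of the 27 in irradiated non-B cells 22 overlapped an irradiated B cell peak (81.5%), against 85.3%. The genes were therefore shared to about the same degree as the lists in general. In the mock lists 4 of 7 B cell peaks overlapped a mock non-B cell peak, and 4 of 6 the other way, where 31.3 and 67.1% of all peaks did.

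At 20 sites an irradiated B cell peak and an irradiated non-B cell peak were each other's best overlap. The ratio of the non-B to the B cell value had a median of 1.09 over these 20 pairs and of 0.892 over all 17868 such pairs. The ratio differed between high and low sites. At the 8 pairs with a B cell value of at least 100 it was 1.67 at the median (0.799 to 2.07), and over all 1042 such pairs it was 1.06, with outer deciles of 0.609 and 1.70. These ratios describe 2 libraries that have no common scale. Among single sites the ratio was 1.87 at the Mdm4 intron, 1.99 at Ccng1, 2.07 at the Trp53inp1 promoter and 1.84 at the first downstream copy, and 0.799 at the next. By rank, the Trp53inp1 promoter stood at 366 in irradiated B cells and 124 in irradiated non-B cells, its first downstream copy at 391 and 170, Ccng1 at 191 and 81, and Rchy1 at 905 and 533. The Mdm2 intron (179 and 193) and the next downstream copy (748 and 971) stood lower in non-B cells.

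**Figure D4:**
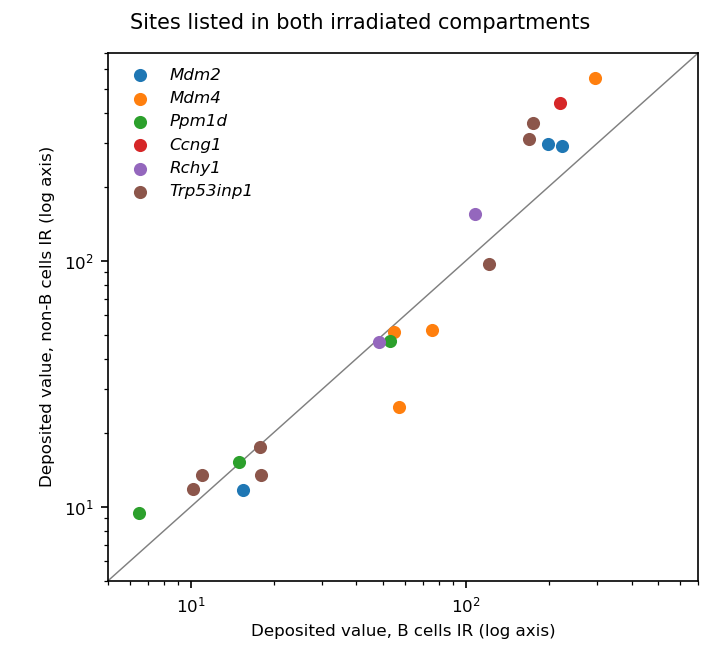
Deposited values of the 20 sites listed in both irradiated compartments, irradiated B cells on the x axis and irradiated non-B cells on the y axis. Both are taken as −log10 of the peak p-value and drawn on log axes. Each point is 1 site coloured by gene, with the line of equal values. Of the 8 sites above 100 in irradiated B cells, 7 lie above the line, and the Mdm4 site at −4586 bp lies lowest against it (57.2 and 25.5).

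The largest shift among the lower sites was at the Mdm4 site near −4586 bp. It was at percentile 89.0 in irradiated B cells and 64.5 in irradiated non-B cells, 0.446 of the B cell value. The Mdm4 start itself was at percentile 88.1 and 87.6. The Ppm1d promoter (87.3 and 86.0) and the distal Rchy1 site (85.1 and 85.7) were also level between the compartments.

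Other regulators of p53 were compared as a group: 24 genes whose products ubiquitinate, deubiquitinate, modify or bind p53 or Mdm2, such as Pml, Hipk2 and Sirt1. This group was put together with earlier results of these data known, so the comparison is a description and not a test. In the mock lists 0 of the 24 had a peak in either compartment, where 4.45% (B cells) and 2.27% (non-B cells) of all genes did, so that few would have one at that share. After irradiation 17 of 24 had one in B cells and 18 of 24 in non-B cells, against 53.4 and 51.8% of all genes, and 0 of 24 had one in the top 5% of either list, against 4.17 and 3.61%. With 24 genes, a count of 0 at shares this low does not set the group apart from other genes. The median percentile of their highest peak was 72.3 in irradiated B cells and 55.4 in irradiated non-B cells. The 7 feedback regulators held 27 peaks in each of these lists, and the other regulators 42 at 17 genes and 34 at 18. The part of peak number per gene in these percentiles was not tested. The highest in irradiated B cells were Daxx, a chaperone that bridges Usp7 and Mdm2 (62.9 in irradiated B cells and 53.3 in irradiated non-B cells), Trim24, a ubiquitin ligase (55.8 and 25.9), and Pml, the scaffold of nuclear bodies (49.4 and 43.1). In irradiated non-B cells Trim24 was not among the highest, and Trim28 (42.4) and Topors (40.5) followed Daxx and Pml. Ppm1d, at 52.8 and 47.3, lay among the highest of these, and Usp7 lay below most of them.

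**Figure D5:**
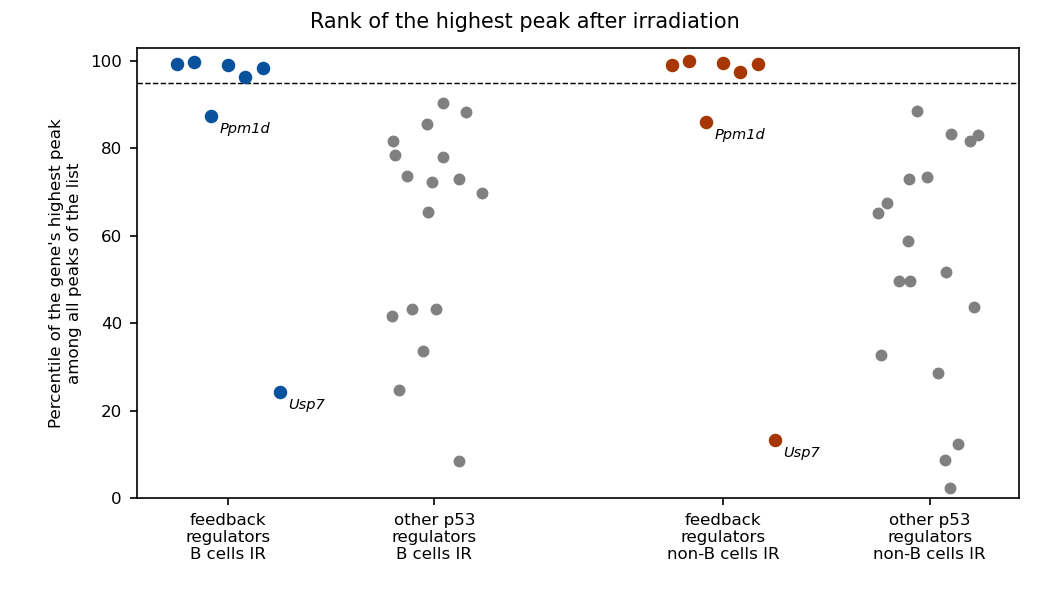
Percentile of each gene's highest peak among all peaks of its list, for the feedback regulators (coloured, 7 genes) and the other p53 regulators that had a peak (grey, 17 genes in irradiated B cells and 18 in irradiated non-B cells, spread sideways at random); the dashed line marks the top 5%. Of the feedback regulators 5 lie above the line in each compartment, Ppm1d and Usp7 below it, and none of the other regulators lie above it. The group of other regulators was put together with earlier results of these data known.

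By the percentile of the highest peak in the 4 Trp53+/+ lists, the protein-coding genes nearest to Mdm4 were C030034I22Rik (distance 1.70 percentile points), Nf1, a brake on Ras signalling (2.59), and 1700029H14Rik (2.97). Each had, as Mdm4 did, a mid-list peak in mock B cells (9.78, 9.16 and 9.08), none in mock non-B cells, and a high one in both IR lists (193, 221 and 298 in B cells and 271, 161 and 496 in non-B cells). Nearest to Ccng1 were Zmat3, which encodes a zinc finger RNA-binding protein known as a p53 target (distance 1.11), 4930429B21Rik with the same 4 values, and Ghitm (1.36). Zmat3 had values of 26.6 in mock B cells, 225 in irradiated B cells, 29.8 in mock non-B cells and 474 in irradiated non-B cells. These distances rest on 4 libraries and on the rule that a gene with no peak is set to 0.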

How the data were processed

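p53 ChIP-seq peak lists of 5 libraries were used (B cells and non-B cells, each mock and IR, and Trp53-/- spleen IR); an input library without a list was not used. Per the labels and methods of the study, low-quality bases were masked, reads were aligned to mm9 with BWA 0.6.2, and peaks were called with MACS. Each list holds positions and 1 value per peak, read here from its values as the authors' −log10 of a peak p-value: 25.4 to 38.8% of the wild-type values below 40 equalled that of a Poisson count at a single background mean, within 0.0051. That mean was chosen per list to give the most matches, and the Trp53-/- list was taken to hold the same unit. Values began at 5.01 to 5.85, depending on the list. If the unit is as inferred, the stated limit on p had not been applied to this column. Coverage and depth were not given in the lists.

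Coordinates count from 1 on mm9 and genes are from GENCODE vM1. Peaks were ranked by value (ties by width, then position), assigned by overlap of at least 1 bp, and compared between lists in the same way. Elements were searched in the mm9 reference sequence. All 7 genes are named with their highest peak per list and all mock peaks. Likeness is the Euclidean distance over 4 percentiles, taken for the genes with the highest irradiated B cells and mock B cells value, leaving out genes with overlapping windows. The members, the lists and the group of other p53 regulators were chosen with earlier results of these data known. Alternatives were other windows, minimum values, overlap rules and element settings. The overlap, window, rank and element steps were tested on simulated data and returned the known answers. The tools were samtools 1.23.1 and Python 3.11.15 with pysam 0.24.0, pandas 2.3.3, numpy 2.4.6 and matplotlib 3.10.9.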

Additional observations from a re-analysis of the deposited data

How the results depend on the processing

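Of 167 values recomputed for 49 results, 143 stayed within 1.5 times the count or within the measure's limit, and 24 moved. With gene bodies alone, mock B cells fell from 4 genes and 7 peaks to 2 and 2, peaks in irradiated B cells from 27 to 14, in mock non-B cells from 6 to 3 and in irradiated non-B cells from 27 to 12, since peaks outside the body are then left out. With 50 kb on both sides irradiated B cells had 41 peaks. With a minimum value of 20 there were 2 genes and 2 peaks in mock B cells, 13 peaks in irradiated B cells, 3 in mock non-B cells and 13 in irradiated non-B cells. With promoters alone, mock B cells had 2 genes, and the highest value was 57.2 and 51.1 for Mdm4 in irradiated B cells and irradiated non-B cells in place of 294 and 552, and 5.95 for Mdm2 in mock non-B cells in place of 24.2, as with gene bodies alone (5.95). Peaks with an element in irradiated B cells were 7, and were 2 with the element within 100 bp of the midpoint (at 1 gene in place of 5), 11 with up to 4 mismatches and 11 with a spacer of 1 to 15 bases also allowed. In irradiated non-B cells they were 7, and were 4 with at most 2 mismatches (at 3 genes in place of 5), 11 with at most 4 and 14 with a spacer. Where an alternative left no peak at a gene, no value was given. Leaving out a library was not possible with 1 per group. No paired analysis was possible because every group was a single library. Depth, which is unknown, limits all counts of weak sites.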

Other observations

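A high peak lay beyond the 10 kb window of Ppm1d. It stood about 40 kb upstream of the gene, at chr11:85083973-85084610 in irradiated B cells with a value of 201 (rank 252) and at chr11:85083952-85084627 in irradiated non-B cells with 220 (rank 324), above the 52.8 and 47.3 of the Ppm1d promoter peak. In the mock lists, where the Ppm1d window held no peak, it was listed at 16.2 (rank 231) in B cells and 11.7 (rank 310) in non-B cells. The nearest annotated start in irradiated B cells was that of Appbp2, with the peak at −35659 bp from it, and which gene it serves was not tested. A peak of 173 in irradiated B cells and 115 in irradiated non-B cells near Ccng1 lay at the start of the neighbouring gene Nudcd2, with its midpoint at −129 bp and 124 bp. Beyond the other windows, between 10 and 50 kb from the gene, the highest values were both near Usp7. They were 73.3 in irradiated B cells, at the Carhsp1 start beyond the 3′ end of Usp7, and 44.4 in irradiated non-B cells. The latter lay upstream of Usp7, with its midpoint −265 bp from the start of the gene 1810013L24Rik.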
